A study of Homo sapiens with 3 samples.

Results

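The genes of the aminoacyl-tRNA synthetases were followed through a knockdown of PRMT6, which places methyl groups on arginines of histones and other proteins, in HEC1B, a long-established line of human endometrial cancer. The members were all genes of the count table whose symbol belongs to the family in its older form (WARS and not WARS1), 35 of 26485 genes. Of these, 20 encode cytosolic enzymes and 15, with a symbol ending in 2, encode mitochondrial ones. The PRMT6 knockdown group held 2 total RNA libraries, siPRMT6-1 and siPRMT6-2, each made with its own siRNA, and the siNC control group held 1 library. All came from the same line at 48 h, and no label gives a repeat culture of any siRNA. The family, and WARS within it, were selected on the counts and ratios to siNC of these same libraries, so those values are a description. With 1 library of each kind, the siRNA and the culture it was used on cannot be told apart.

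Aminoacyl-tRNA synthetases join each amino acid to its tRNA, the step at which the genetic code is read. Cytosol and mitochondria mostly use separate nuclear genes for this, and several cytosolic enzymes sit together in the multisynthetase complex. Many cytosolic synthetase genes are known targets of ATF4, the transcription factor of the amino acid stress response, while WARS, the tryptophanyl-tRNA synthetase, is known as an interferon-induced gene.

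The libraries held 381628 counts for siPRMT6-1, 362080 for siPRMT6-2 and 410916 for siNC, and the members took 0.233% of them in siPRMT6-1 and 0.258% in siPRMT6-2, against 0.238% in siNC. PRMT6 itself had 4 counts in siPRMT6-1 and 7 in siPRMT6-2, against 25 in siNC. Reads were assigned by strand, with setting 1, and genes on the other strand bear on what a count stands for. DARS, for aspartate, had 6 counts in siPRMT6-1 and 6 in siPRMT6-2, against 10 in siNC, whereas its antisense partner DARS-AS1, with 114 exon bases in common, had 426 and 302, against 541. Whether setting 1 suits the kit was not tested beyond such pairs, and if it does not, every member's counts stand for RNA of the other strand. Of the labelled epithelial cell type, 3 of 9 markers passed the filter on low counts (KRT8, KRT18 and PAX8), all of them overlapped by exons of an opposite-strand gene, as are 3596 of the 26485 genes, and KRT19 and CDH1 had 0 counts in every library.

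WARS was far above its siNC level in the siPRMT6-2 library and not in the siPRMT6-1 library. It had 31 counts in siPRMT6-1 and 206 in siPRMT6-2, against 42 in siNC. The gene lies at hg38 chr14:100333788-100376343 on the minus strand, with 2968 exon bases. Its depth-scaled level (CPM, counts over the TMM-scaled library size) in siPRMT6-1 was 0.768 of that in siNC, with an exact binomial 95% interval of 0.467 to 1.25. In siPRMT6-2 it was 5.73 times that in siNC (4.10 to 8.19). Between both knockdown libraries the ratio of siPRMT6-2 to siPRMT6-1 was 7.46 (5.10 to 11.3), a comparison that does not use the siNC library. All such intervals cover counting error only and compare single libraries. In bulk RNA, more cells that express a gene and more RNA per cell cannot be told apart.

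RefSeq gives WARS 2 starts, and the 250 bases before each are shown because they differ in the elements that interferon-activated factors are known to bind. The windows are on GRCh38.p14, minus strand, at chr14:100376328-100376577 for the upstream start and chr14:100375348-100375597 for the downstream one. Capitals mark matches, on either strand, to the core of the interferon-stimulated response element (GAAA, any 2 bases, GAAA) or to TTCNNNGAA, the gamma-activated site.
WARS, upstream start: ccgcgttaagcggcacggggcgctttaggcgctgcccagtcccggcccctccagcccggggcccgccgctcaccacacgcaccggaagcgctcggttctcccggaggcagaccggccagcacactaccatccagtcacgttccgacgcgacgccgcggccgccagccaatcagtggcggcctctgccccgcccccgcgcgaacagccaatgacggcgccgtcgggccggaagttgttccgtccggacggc
WARS, downstream start: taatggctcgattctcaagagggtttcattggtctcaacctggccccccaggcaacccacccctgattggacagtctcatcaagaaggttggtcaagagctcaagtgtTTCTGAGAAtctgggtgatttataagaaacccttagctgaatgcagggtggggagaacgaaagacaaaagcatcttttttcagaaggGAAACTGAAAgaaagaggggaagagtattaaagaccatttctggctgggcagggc
The upstream window held neither element. In the downstream window the response element began at position -55 and the gamma-activated site at position -142, where -1 is the base before the start and 1 the start itself. Windows of 300 bases, 250 before and 50 after a start, could be matched for 29 of the 35 members, 38 windows in all, and not for DARS, LARS, VARS, YARS, AARS2 and VARS2. The response element was found in windows of WARS and EARS2, or 3 member windows, 7.89%, against 3.57% of all 35116 windows, and 2 of the 3 are overlapping EARS2 windows that hold the same site. The gamma-activated site was found in windows of CARS, TARS, WARS, PARS2 and WARS2, or 18.4% of member windows against 7.66% of all, with 1 WARS2 site counted in 2 overlapping windows. The matches of the searched elements did not overlap each other. A match says that the letters are there, not that a factor was bound.

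Within its family WARS took the top place in siPRMT6-2 and a middle one elsewhere. It made up 4.15% of the cytosolic synthetase counts in siPRMT6-1 (31 of 747, exact binomial interval 2.84 to 5.84%) and 25.1% in siPRMT6-2 (206 of 820, 22.2 to 28.2%), against 5.22% in siNC (42 of 804, 3.79 to 6.996%). By counts it ranked 12 of 20 in siPRMT6-1 and 1 of 20 in siPRMT6-2, against 10 of 20 in siNC. The next gene in siPRMT6-2, HARS, had 73 counts, or 8.90% of the cytosolic sum. Per count of the other 19 cytosolic members, WARS relative to siNC was 0.786 with siPRMT6-1 (0.477 to 1.28) and 6.09 with siPRMT6-2 (4.35 to 8.70), a value that does not depend on how libraries are scaled. Without WARS the cytosolic sum was 716 in siPRMT6-1 and 614 in siPRMT6-2, against 762 in siNC, and relative to siNC this was 0.978 (0.882 to 1.08) and 0.942 (0.846 to 1.05). With WARS in it the cytosolic sum relative to siNC was 1.19 with siPRMT6-2 (1.08 to 1.32), so the sum exceeds that of siNC only through WARS.

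**Figure D1:**
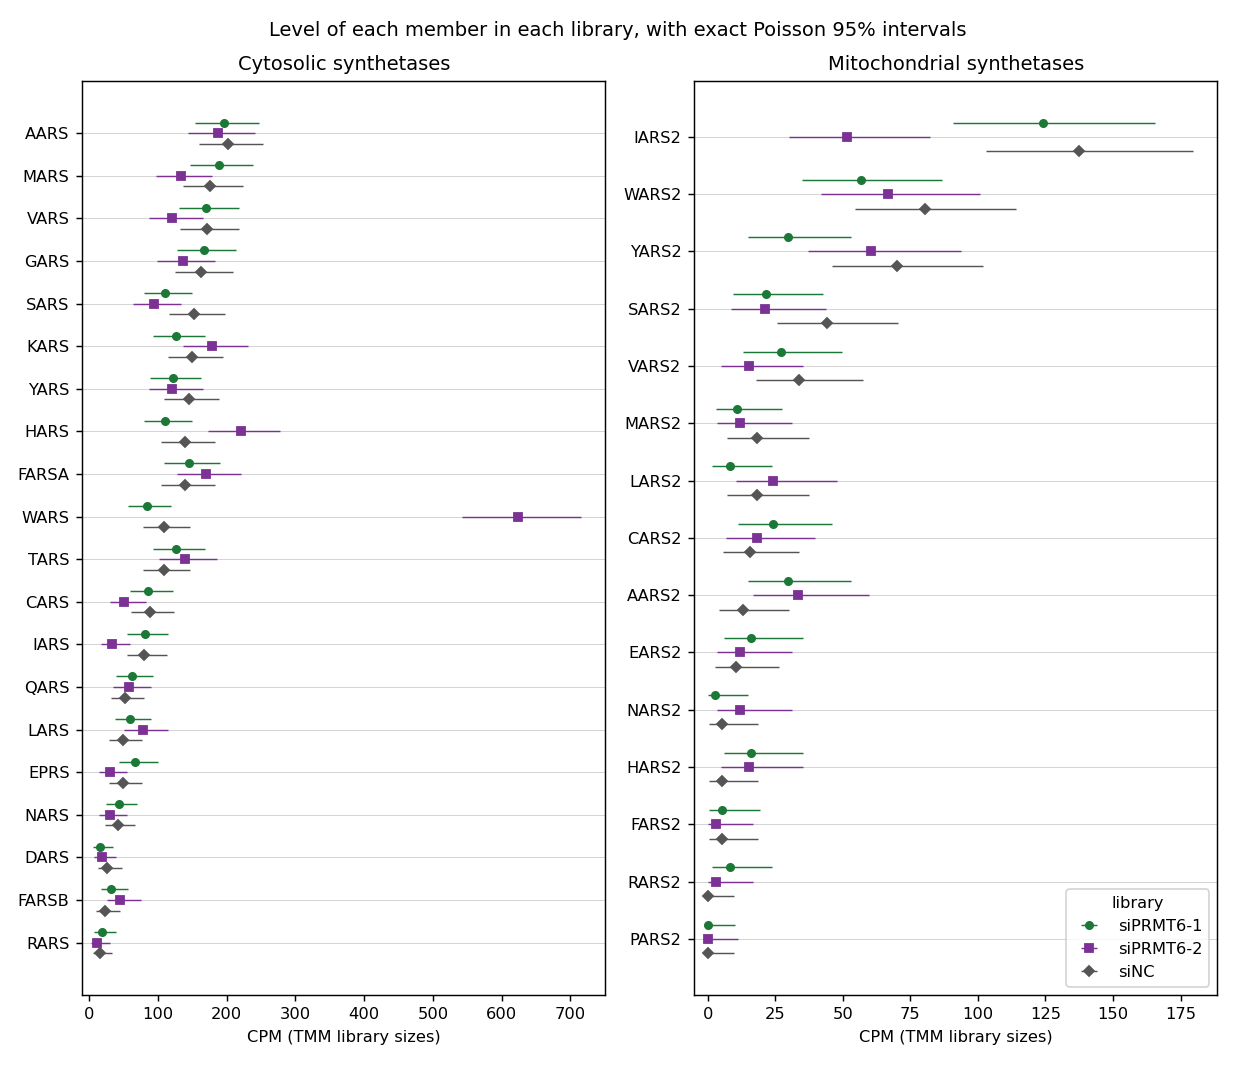
Level of each synthetase gene in CPM (TMM-scaled library sizes) in the siPRMT6-1, siPRMT6-2 and siNC libraries, with exact Poisson 95% intervals and genes sorted by their siNC level within each compartment. WARS in siPRMT6-2 stands apart from every other point, and IARS2 in siPRMT6-2 lies below its level in the other 2 libraries.

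Genes like WARS across the libraries were sought among the 1902 genes with at least 100 counts over the 3 libraries. By its siPRMT6-2 log2 ratio (log2 CPM difference, prior count 2) of 2.46, WARS ranked 18. Genes close to it, by distance in the plane of both log2 ratios, included TMEM132A, ZNFX1, TLDC2 and ZC3HAV1. ZC3HAV1, which encodes an antiviral zinc finger protein, had 21 counts in siPRMT6-1 and 120 in siPRMT6-2, against 21 in siNC. TMEM132A had 14 and 102, against 19, the helicase-like gene ZNFX1 had 20 and 128, against 27, and TLDC2 had 29 and 165, against 31. Exons of opposite-strand genes overlap TMEM132A, ZNFX1 and TLDC2. A likeness over 3 libraries rests on very few points.

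**Figure D2:**
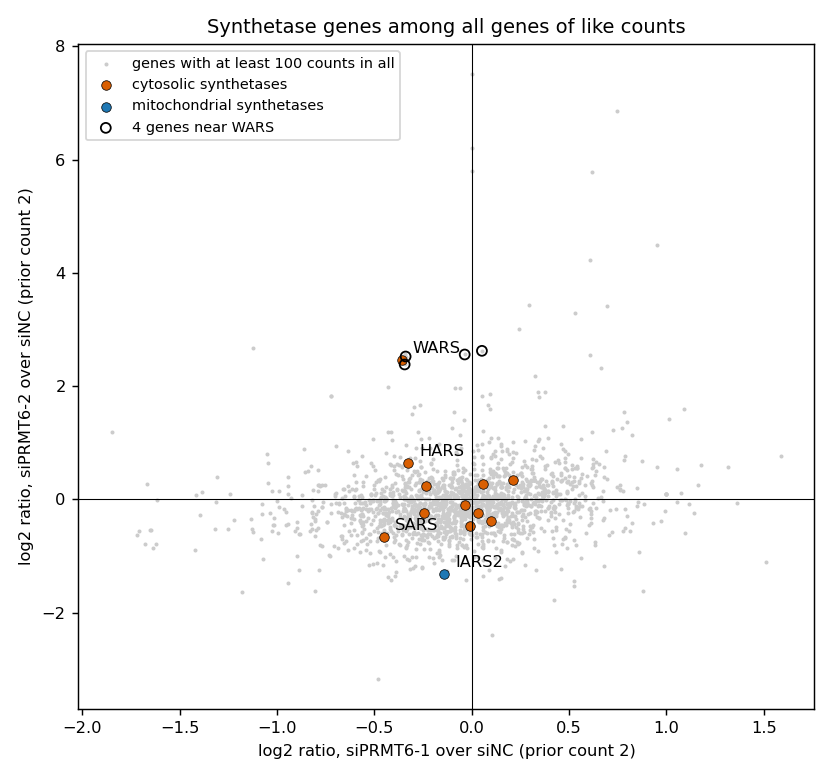
The log2 ratio to siNC with siPRMT6-1 (x axis) and with siPRMT6-2 (y axis), prior count 2, for the 1902 genes with at least 100 counts over the 3 libraries. WARS lies at 2.46 on the y axis with 4 genes near it (open circles), while the other synthetase genes that reach 100 counts lie between -1.33 (IARS2) and 0.64 (HARS).

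A list of 24 interferon target genes, among them antigen presentation genes, had 189 counts in siPRMT6-1 and 850 in siPRMT6-2, against 193 in siNC. Relative to siNC the sum was 1.02 with siPRMT6-1 (0.829 to 1.25) and 5.15 with siPRMT6-2 (4.398 to 6.05), beside 5.73 for WARS. TAPBP, a peptide loading factor, had 113 and 346 counts, against 110, and HLA-E had 10 and 66, against 15. HLA-B had 0 and 82, against 0, and class I genes such as HLA-B and HLA-E can share reads. PSMB10, of the immunoproteasome, had 30 and 30, against 18. TAP1, the peptide transporter, had 5 and 83 counts, against 7, and is overlapped by an opposite-strand gene. Of the list, 11 genes passed the filter, 6 of them only through siPRMT6-2, and GBP2, CXCL9, CXCL10 and UBE2L6 had 0 counts in every library. The list was written with the response of such genes in this library already known.

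Leukocyte markers summed over 7 genes had 26 counts in siPRMT6-1 and 66 in siPRMT6-2, against 24 in siNC. Nearly all of this difference lies in 1 gene, CD68, with 19 and 56, against 17. CSF1R had 6 and 8, against 7, while PTPRC, CD3E and CD14 had 0 in every library. Epithelial markers summed to 896 counts in siPRMT6-1 and 1112 in siPRMT6-2, against 1634 in siNC, or 0.571 (0.525 to 0.619) and 0.796 (0.736 to 0.859) of siNC. KRT8 had 681 and 770, against 1329, and PAX8 117 and 227, against 158, and the part of this in the synthetase values was not tested. Fibroblast markers summed to 360 and 372 counts, against 531, nearly all from COL1A1, and endothelial markers to 27 and 15, against 26.

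The tryptophan pathway around WARS was sparsely counted, with 33 counts in siPRMT6-1 and 26 in siPRMT6-2, against 55 in siNC, or 0.624 (0.393 to 0.979) and 0.553 (0.333 to 0.896) of siNC. Of the 9 genes of tryptophan use in the table only QPRT and AFMID passed the filter, and IDO1, IDO2, TDO2, KYNU and HAAO had 0 counts in every library. QPRT, of NAD synthesis, had 26 counts in siPRMT6-1 and 16 in siPRMT6-2, against 31 in siNC. AFMID, which acts after the first step of tryptophan breakdown, had 4 and 5, against 15, and KMO, overlapped by an opposite-strand gene, had 2 and 5, against 6. SLC7A5, the transporter that brings tryptophan and leucine into cells, was higher in siPRMT6-1 and lower in siPRMT6-2 than in siNC. It had 283 counts in siPRMT6-1 and 63 in siPRMT6-2, against 204 in siNC, ratios of 1.44 (1.20 to 1.74) and 0.361 (0.268 to 0.481). The mitochondrial tryptophanyl-tRNA synthetase gene WARS2 had 21 counts in siPRMT6-1 and 22 in siPRMT6-2, against 31 in siNC, with a ratio of 0.830 with siPRMT6-2 (0.458 to 1.48). It shares 118 exon bases with LOC101929147 on the opposite strand.

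Across all genes no member passed the test. The edgeR quasi-likelihood test of PRMT6 knockdown against siNC was run on 6803 genes, of which it called 0.0% at an adjusted p under 0.05, and 0 of the 24 members that passed the filter. At an unadjusted p under 0.05 it had 186 genes, 2.73%, and 0 members. DESeq2 called 0 genes, with 13 genes and 0 members at an unadjusted p under 0.05. For WARS the edgeR log2 fold change over both siRNAs was 1.69 (SE 0.824) with an adjusted p of 1.00, and over the other settings and tools the adjusted p ran between 0.207 and 1.00. The only spread within a group in that fit is the gap between both siRNAs, 7.46-fold for WARS, and the fit moderates it toward the spread over all genes. The filter kept 18 cytosolic and 6 mitochondrial members, of which FARSB and AARS2 passed through knockdown libraries only and SARS2 through siNC only.

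Per siRNA there is no test, and the members are described by the interval of each ratio. With siPRMT6-1 the interval lay wholly above 1 for 0 of the 24 members (5.89% of all 6803 genes) and wholly below 1 for 1, YARS2 (7.14% of all genes). With siPRMT6-2 it lay above 1 for 2, WARS and HARS (9.73% of all genes), and below 1 for 3, IARS, SARS and IARS2 (8.82% of all genes). A fold of at least 2 on the log2 scale with a prior count of 2 was reached upward by 0 members with siPRMT6-1 (4.89% of all genes) and by WARS and AARS2 with siPRMT6-2 (8.16%). Downward it was reached by YARS2 with siPRMT6-1 (4.38%) and by IARS and IARS2 with siPRMT6-2 (5.38%). These contrasts were known when the members were chosen, so nothing is read from the counts. The median log2 ratio of the 24 members was -0.02 with siPRMT6-1 and -0.25 with siPRMT6-2, beside 0.01 and 0.01 over all 6803 genes. Both siRNAs share the siNC library, so a high or low count there moves both ratios.

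**Figure D3:**
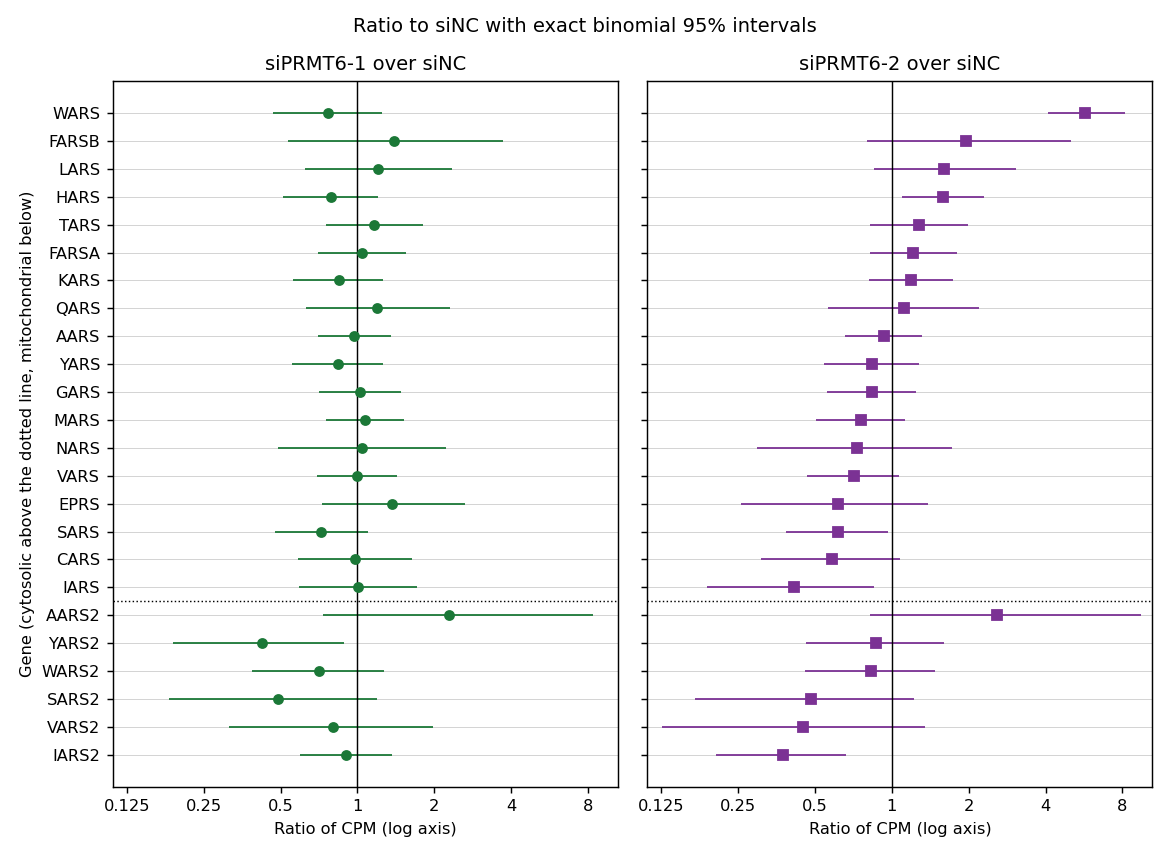
Ratio of CPM to siNC (log axis) with siPRMT6-1 (left) and siPRMT6-2 (right) for the 24 synthetase genes that passed the filter on low counts, with exact binomial 95% intervals, cytosolic genes above the dotted line. With siPRMT6-2 the interval of WARS (4.10 to 8.19) lies apart from 1, those of IARS and IARS2 lie below 1, and most others cross it.

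Both isoleucine enzymes were lower in siPRMT6-2. IARS, the cytosolic isoleucyl-tRNA synthetase at chr9:92210209-92293756, had 30 counts in siPRMT6-1 and 11 in siPRMT6-2, against 31 in siNC. IARS2, its mitochondrial counterpart at chr1:220094113-220148041, had 46 and 17, against 53. The siPRMT6-1 and siNC libraries were alike for both genes and siPRMT6-2 was low. Relative to siNC, IARS stood at 0.415 (0.188 to 0.848) and IARS2 at 0.375 (0.204 to 0.658) with siPRMT6-2, and at 1.01 (0.589 to 1.72) and 0.903 (0.595 to 1.37) with siPRMT6-1. Against siPRMT6-1, which leaves out the siNC library, siPRMT6-2 gave 0.412 for IARS (0.186 to 0.845) and 0.415 for IARS2 (0.223 to 0.738). Neither gene shares exon bases with an opposite-strand gene of the table. The nearest member to IARS2 along chromosome 1 is EPRS, the fused enzyme for glutamate and proline at chr1:219968600-220046658, which had 25 counts in siPRMT6-1 and 10 in siPRMT6-2, against 19 in siNC. Its ratio to siNC was 0.615 with siPRMT6-2, with an interval of 0.256 to 1.39 that includes 1.

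HARS and SARS were the other cytosolic members with an interval off 1 in siPRMT6-2. HARS, for histidine, had 41 counts in siPRMT6-1 and 73 in siPRMT6-2, against 54 in siNC, so siNC lay between both knockdown libraries. Its ratio was 0.790 (0.513 to 1.21) with siPRMT6-1 and 1.58 (1.10 to 2.29) with siPRMT6-2. HARS and HARS2, which encodes the mitochondrial enzyme, lie head to head on chromosome 5 and share 302 exon bases on opposite strands. HARS2 had 6 and 5 counts, against 2, and in GENCODE 29 HARS also shares 221 exon bases with WDR55. SARS, for serine, had 41 counts in siPRMT6-1 and 31 in siPRMT6-2, against 59 in siNC, with ratios of 0.723 (0.473 to 1.10) and 0.614 (0.384 to 0.964). Both knockdown libraries lay below siNC for SARS, and for its mitochondrial counterpart SARS2 as well, with 8 and 7 counts against 17. The SARS2 ratios were 0.490 (0.183 to 1.20) and 0.481 (0.169 to 1.22), and SARS2 shares 189 exon bases with the mitochondrial ribosomal protein gene MRPS12, which had 36 and 22 counts, against 28.

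AARS, GARS, VARS and MARS, with 40 to 78 counts in each library, had ratios near 1 with siPRMT6-1 and below 1 with siPRMT6-2. FARSA (1.21), KARS (1.19) and TARS (1.28), also within that count range, stood above 1 with siPRMT6-2, as did HARS, and YARS stood at 0.835. AARS, for alanine, had 73 counts in siPRMT6-1 and 62 in siPRMT6-2, against 78 in siNC, and its ratio with siPRMT6-2 was 0.929 (0.655 to 1.31). GARS, whose gene serves both cytosol and mitochondria with glycyl-tRNA, had 62 and 45, against 63. VARS, for valine, had 63 and 40, against 66. MARS, for methionine, had 70 and 44, against 68. These 4 genes stood at 0.974 (AARS) to 1.07 (MARS) of siNC with siPRMT6-1, and at 0.708 (VARS) to 0.929 (AARS) with siPRMT6-2, with every interval including 1. FARSA and FARSB encode the subunits of the phenylalanine enzyme. FARSA had 54 counts in siPRMT6-1 and 56 in siPRMT6-2, against 54 in siNC, and FARSB had 12 and 15, against 9. KARS, which like GARS serves both compartments, had 47 and 59, against 58, TARS, for threonine, 47 and 46, against 42, and YARS, for tyrosine, 45 and 40, against 56. CARS, for cysteine, had 32 and 17, against 34, and NARS, for asparagine, 16 and 10, against 16. RARS, for arginine, had 7 and 4, against 6. Apart from HARS with siPRMT6-2, the intervals of all these ratios include 1. At these counts that leaves room for sizeable differences, such as 0.306 to 1.08 for CARS with siPRMT6-2.

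The multisynthetase complex was described through 8 of its enzymes, DARS, EPRS, IARS, KARS, LARS, MARS, QARS and RARS. Together they had 230 counts in siPRMT6-1 and 179 in siPRMT6-2, against 231 in siNC, or 1.04 (0.859 to 1.25) and 0.906 (0.741 to 1.11) relative to siNC. LARS, for leucine, had 22 and 26 counts, against 19, and QARS, for glutamine, 23 and 19, against 20. The ratios within the complex thus ran from 0.415 (IARS) to 1.60 (LARS, 0.852 to 3.06) with siPRMT6-2. Its scaffold genes AIMP1, AIMP2 and EEF1E1 had 61 counts in siPRMT6-1 and 63 in siPRMT6-2, against 74 in siNC, 0.858 (0.601 to 1.22) and 0.995 (0.7 to 1.41) of siNC. AIMP1 had 29 and 32, against 35, AIMP2 31 and 27, against 37, and EEF1E1 1 and 4, against 2, and opposite-strand exons overlap AIMP1 and AIMP2.

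Synthetases fall into structural classes with differently folded catalytic domains. Class I genes without WARS, 18 members with EPRS counted here although its proline part is class II, had 430 counts in siPRMT6-1 and 298 in siPRMT6-2, against 467 in siNC. Relative to siNC this was 0.958 (0.839 to 1.09) and 0.746 (0.643 to 0.864). The 16 class II genes had 427 and 431, against 471, or 0.943 (0.826 to 1.08) and 1.07 (0.936 to 1.22). Leaving out IARS and IARS2, a choice made after their values were seen, class I stood at 0.824 (0.703 to 0.965) with siPRMT6-2.

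**Figure D4:**
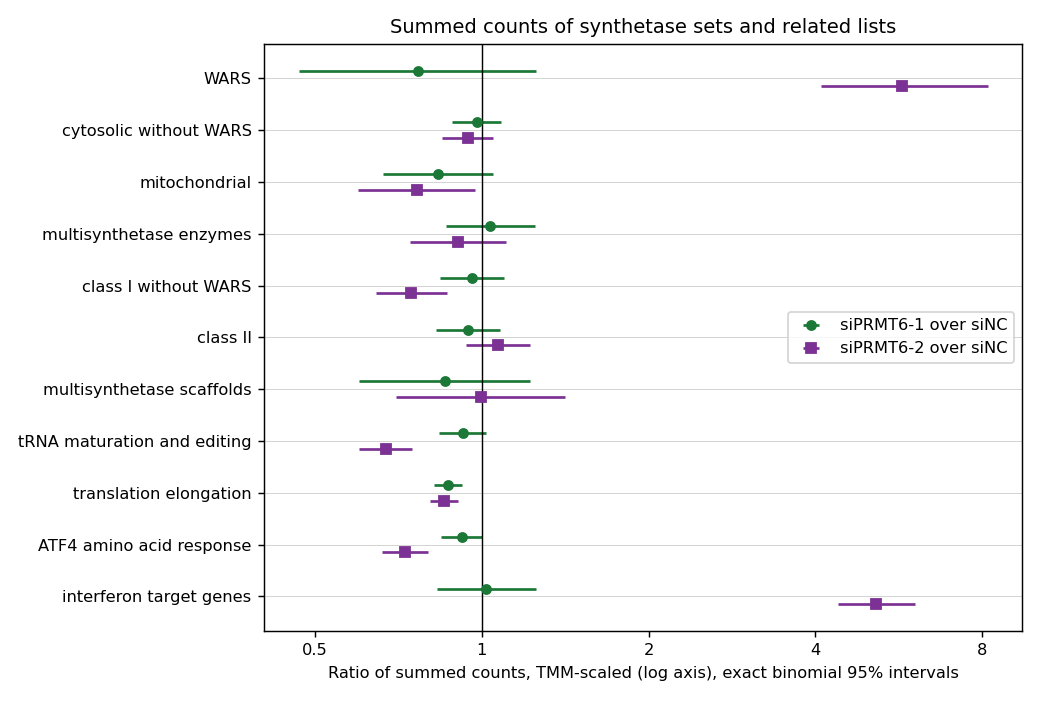
Ratio of TMM-scaled summed counts to siNC (log axis) with siPRMT6-1 and siPRMT6-2 for WARS, sets of synthetase genes and related lists, with exact binomial 95% intervals. With siPRMT6-2 WARS and the interferon target genes lie above 5 times siNC, and the cytosolic members without WARS lie at 0.942.

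The mitochondrial members were sparsely counted, with 141 counts in siPRMT6-1 and 115 in siPRMT6-2, against 176 in siNC, summed over 15 genes. Relative to siNC this was 0.834 (0.663 to 1.05) and 0.764 (0.599 to 0.972). Leaving out IARS2, a choice made after its values were seen, the ratios were 0.804 (0.608 to 1.06) and 0.931 (0.707 to 1.22). YARS2, for tyrosine, was the member with a low siPRMT6-1 library. It had 11 counts in siPRMT6-1 and 20 in siPRMT6-2, against 27 in siNC, with ratios of 0.424 (0.190 to 0.883) and 0.866 (0.460 to 1.60). AARS2 had 11 and 11, against 5, so both knockdown libraries lay above siNC, with ratios of 2.29 (0.733 to 8.41) and 2.57 (0.824 to 9.44). In GENCODE 29 AARS2 shares 235 exon bases with the coding gene TMEM151B on the opposite strand. VARS2 had 10 and 5, against 13. Fewer than 10 counts in every library were found for 10 members, of which 9 are mitochondrial (CARS2, EARS2, FARS2, HARS2, LARS2, MARS2, NARS2, PARS2 and RARS2) and RARS is cytosolic. PARS2, for proline, had 0 counts in every library, which allows up to 8.09 CPM in siPRMT6-1, 9.09 in siPRMT6-2 and 7.78 in siNC (3 counts each). RARS2 had 3 and 1 counts, against 0, and at these counts differences among these genes were not detectable.

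Levels of different genes were compared per kilobase of exon. In siPRMT6-2 WARS had 210 CPM per kb, the highest of the family, and the next were HARS with 95.9 and FARSA with 91.6. In siPRMT6-1 WARS had 28.2, against 36.7 in siNC, where it ranked 10. The highest levels in siNC were those of FARSA with 75.5 CPM per kb, KARS with 68.5 and HARS with 60.7. Their Poisson intervals overlap, at 56.7 to 98.5 for FARSA and 45.6 to 79.2 for HARS, so the order among them is not resolved. Of the mitochondrial genes IARS2 with 38.7, YARS2 with 32.2 and WARS2 with 28.3 CPM per kb were highest in siNC. VARS and VARS2, in the MHC region of chromosome 6, have 6 and 5 further copies on alternative haplotype sequences of the gene models and CARS has 1, where reads that map to several copies can be lost, so their levels may be too low.

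Opposite-strand neighbours deserve the values of both genes. In the table's gene models 7 members share exon bases with such a gene, DARS, HARS, MARS, YARS, HARS2, SARS2 and WARS2. Besides AARS2 and WARS, GENCODE 29 adds such genes for CARS (205 bases), GARS (99), NARS2 (98), LARS (42), EARS2 (14) and FARSA (6). MARS shares 68 bases with DDIT3, which encodes the stress transcription factor CHOP and had 109 counts in siPRMT6-1 and 70 in siPRMT6-2, against 197 in siNC, or 0.576 (0.451 to 0.731) and 0.415 (0.312 to 0.548) of siNC. DARS-AS1 stood at 0.819 (0.720 to 0.932) and 0.653 (0.565 to 0.753) of siNC, so both high partners were lower in both knockdown libraries. Whether RNA of DARS itself was counted under DARS-AS1 was not tested. YARS shares 248 bases with S100PBP, which had 1 and 6 counts, against 2. WARS has no such partner in the table, but GENCODE 29 places the antisense gene AL157871.4 opposite 193 of its exon bases, and its part in the WARS counts was not tested.

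**Figure D5:**
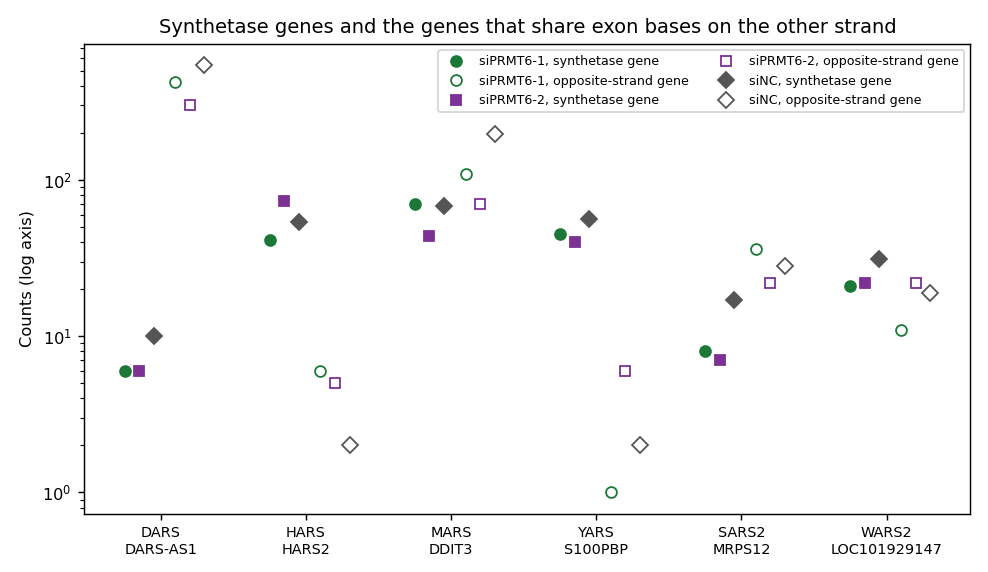
Counts (log axis) of 6 synthetase genes (filled) and of the gene that shares exon bases with each on the opposite strand (open), in siPRMT6-1, siPRMT6-2 and siNC. DARS-AS1, at 302 to 541 counts, stands far above DARS, at 6 to 10, while HARS stands above HARS2.

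An element of the amino acid response marks several cytosolic members. TGATGNAA, the core of the C/EBP-ATF element through which ATF4 acts on many of its targets, was found on either strand in windows of 8 members, AARS, CARS, GARS, IARS, MARS, NARS, TARS and YARS2, or 21.1% of member windows against 3.62% of all. In 6 of the cytosolic genes the letters are TTGCATCA or its reverse complement. The sites of the cytosolic genes are shown, on the strand of the gene with 8 bases on each side and the match in capitals, because 6 of them begin between positions -33 and 15, while those of AARS and YARS2 lie farther upstream, at -187 and -197.
AARS: tctcgcagTTGCATCAgccaagtt
CARS: ggcggcggTTGCATCAgattctag
GARS: cgcggcgaTTTCATCAtgctccga
IARS: tcagcgcgTTGCATCAcctccgtg
MARS: ggttccggTTGCATCAgcgaggga
NARS: acgctctcTGATGCAAcgccggaa
TARS: cctttcgaTTGCATCAgctggtcc
They lie at chr16:70289678-70289701 for AARS, chr11:3057410-3057433 for CARS, chr7:30594837-30594860 for GARS, chr9:92293695-92293718 for IARS, chr12:57488056-57488079 for MARS, chr18:57621807-57621830 for NARS and chr5:33440959-33440982 for TARS, all GRCh38.p14. The matches begin at position -187 in AARS, -33 in GARS, -13 in IARS, -4 in MARS, -2 in CARS, 3 in TARS and 15 in NARS, counted from a RefSeq start. With siPRMT6-2 the ratios to siNC of these 7 genes ran from 0.415 (IARS) to 1.28 (TARS), and with siPRMT6-1 from 0.974 (AARS) to 1.16 (TARS).

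The wider list of ATF4 amino acid response genes had 980 counts in siPRMT6-1 and 689 in siPRMT6-2, against 1110 in siNC, or 0.919 (0.842 to 1.00) and 0.726 (0.659 to 0.799) of siNC. None of the 22 of its 29 genes that passed the filter was called by the edgeR quasi-likelihood test, beside 0.0% of all 6803 genes. At an unadjusted p under 0.05 there was 1, beside 2.73% of all 6803 genes. With siPRMT6-1 the interval lay above 1 for 1 gene (5.89% of all genes) and below 1 for 3 (7.14%). With siPRMT6-2 it lay above 1 for 2 (9.73%) and below 1 for 5 (8.82%). The median log2 ratios of the 22 genes were -0.29 and -0.29, beside 0.01 and 0.01 over all 6803 genes. SLC7A5 and DDIT3, given above, are members of this list. SLC1A5, a glutamine transporter gene, had 178 counts in siPRMT6-1 and 138 in siPRMT6-2, against 208 in siNC. PPP1R15A, which helps end the stress response, had 36 and 53, against 28, and a ratio of 2.21 with siPRMT6-2 (1.37 to 3.63). CEBPB had 35 and 57, against 44, with an opposite-strand gene over its exons.

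Genes that act on tRNAs before and after charging were also counted. The 30 genes of tRNA maturation and editing had 784 counts in siPRMT6-1 and 507 in siPRMT6-2, against 884 in siNC, or 0.923 (0.837 to 1.02) and 0.670 (0.6 to 0.749). GATC, a subunit of the amidotransferase that makes mitochondrial glutaminyl-tRNA, held 557 and 310, against 629, of these. It thus largely sets the ratios of the list, and it has an opposite-strand gene over its exons. XPOT, which exports tRNAs from the nucleus, had 16 counts in siPRMT6-1 and 4 in siPRMT6-2, against 26 in siNC, a ratio of 0.180 with siPRMT6-2 (0.0456 to 0.518). TSEN34, a subunit of the tRNA splicing endonuclease, had 48 and 30, against 47, ELAC2, which trims tRNA 3′ ends, 44 and 36, against 35, and the RNase P subunit gene POP4 1 and 11, against 8. The edgeR test called 0 of the 14 genes of this list that passed the filter, beside 0.0% of all 6803 genes. At an unadjusted p under 0.05 there were 0, beside 2.73% of all 6803 genes.

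Elongation factor genes, whose products bring charged tRNAs to the ribosome and move it along, had 2255 counts in siPRMT6-1 and 1978 in siPRMT6-2, against 2702 in siNC over 10 genes. Relative to siNC this was 0.869 (0.821 to 0.919) and 0.856 (0.807 to 0.907). Of 8 tested genes edgeR called 0, beside 0.0% of all 6803 genes. EEF2, of ribosome translocation, had 752 and 724, against 1010, and EEF1A1, which delivers cytosolic aminoacyl-tRNAs, 562 and 510, against 664. TUFM, its mitochondrial counterpart, had 134 and 152, against 185, EEF1G 148 and 106, against 163, and GFM2, which an opposite-strand gene overlaps, 483 and 358, against 518.

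Among related genes outside the member list were TARS2, TARSL2, SEPSECS and PSTK, of which SEPSECS and PSTK act in making selenocysteinyl-tRNA. TARS2 had 2 counts in siPRMT6-1 and 13 in siPRMT6-2, against 5 in siNC, a ratio of 3.04 with siPRMT6-2 (1.02 to 10.9), and passed the filter only through siPRMT6-2. TARSL2 had 2 and 4, against 3, and PSTK 3 and 3, against 1.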

How the data were processed

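Total RNA of HEC1B cells was measured in 3 libraries, made from 10 ng of RNA with a stranded low-input kit, per the labels' protocols. Per the submitters' processing notes, the tools were STAR 2.7.8a and featureCounts 2.0.10 on build hg38, while the file header names featureCounts 2.0.1. The authors deposited raw counts, 1 whole number for each gene and library. Per the file headers, exons were grouped by gene name, pairs were counted with strand setting 1, a read in several overlapping genes went to each, and the names of the aligned files mark a step with UMIs against duplicates. Columns were matched through the labels' descriptions, which name the siRNAs si2 and si3 where titles have siPRMT6-1 and siPRMT6-2.

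The test was edgeR 4.0.16 (R 4.3.3), quasi-likelihood, TMM, filterByExpr (minimum count 10, minimum total 15), fitted on all genes, two-sided, Benjamini-Hochberg adjusted p under 0.05, with 1 residual degree of freedom between the siRNAs and a prior of 12.8; the lone siNC library is assumed to vary like the knockdown ones. DESeq2 1.42.0 was an alternative. The edgeR test was run on simulated counts of the 6803 genes of this comparison, 5 sets with 100 genes per fold. It recovered 29.4% of 4-fold and 84.2% of 16-fold changes, with 7.2 false calls per set on average, 5.96% of its calls. The simulated folds were the same in both knockdown libraries, so these rates do not cover genes that differ between the siRNAs, such as WARS. The knockdown libraries had different siRNAs, and p-values cover only the spread between those libraries. In that spread, differences of siRNA, culture and technique cannot be told apart. Ratios use exact binomial and levels exact Poisson 95% intervals (scipy 1.17.1). Lengths, coordinates and overlaps come from the table's exons on main chromosomes, antisense genes also from GENCODE 29, and promoters from RefSeq (GRCh38.p14).

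All 35 members are accounted for. Values in each library are given for WARS, members with an interval off 1, the highest levels and opposite-strand pairs. From each of 7 related lists the 3 genes with most counts and up to 5 with an interval off 1 are named. Some genes of the lists are not reported here, and list sums are without them. Members and lists were chosen with earlier results of these data known.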

Additional observations from a re-analysis of the deposited data

How the results depend on the processing

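No paired analysis was possible because the control group is 1 library, so no 2 replicate numbers are shared. With library totals or DESeq2 size factors in place of TMM, the ratios of WARS and of the summed members stayed inside their intervals. Over all genes, 32 were called with the older edgeR quasi-likelihood fit and 31 with its likelihood ratio test, beside 0 in the fit reported, and 0 members in each; the cause was not tested. Leaving out 1 knockdown library moved the WARS ratio over both siRNAs (3.11) to between 0.768 and 5.73, WARS per count of the other cytosolic members (3.23) to between 0.786 and 6.09, and the cytosolic sum with WARS (1.07) to between 0.967 and 1.19, the high values being those of siPRMT6-2. Counts of members past a fold of 2 depend on the prior count. With siPRMT6-1, 1 was higher at a prior of 0.5 (0 at 2) and 0 were lower at 5 (1 at 2). With siPRMT6-2, 1 was higher at 5 (2 at 2), and 4 were lower at 0.5 and 1 at 5 (2 at 2). Of 82 alternative values, 69 stayed within the interval of the reported one or, for counts, within 1.5 times it (medians within 0.1 log2). With library totals, the siPRMT6-1 ratio of the cytosolic sum without WARS was 1.02 (0.978 with TMM) and the siPRMT6-1 median of the members 0.04 (-0.02), so neither has a settled direction. Depth limits the family: 10 members had fewer than 10 counts in every library, and 3 counts equal 7.78 to 9.09 CPM.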
